A study of Mus musculus with 12 samples.

Results

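Long intergenic non-coding RNAs are transcripts that lie between protein-coding genes and have no long open reading frame. Many are spliced and polyadenylated like messenger RNAs, and a few are known regulators of chromatin or of neighbouring genes in blood cells. Array designs carry probes for stretches between genes where such transcripts had been proposed, often on both strands because the direction of transcription was uncertain. The probes described here are those named only by such a stretch, as chromosome, start, end and strand (F for forward, R for reverse) on the mouse genome build mm9. There were 4427 of them among 56605 probes that were not controls. They carried 4042 names of interval and strand and covered 3216 distinct intervals. Another 22 interval probes, all in 1 stretch of chromosome 12, were left out.

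Blood-forming stem cells of male mice were studied, 3 mice in each of 4 groups, with 1 array per mouse. The cells were the LSK SLAM fraction of bone marrow, enriched for Kit and sorted by flow cytometry. Control mice had a sham operation. POL5551 blocks CXCR4, the chemokine receptor that holds stem cells in the marrow. It was infused at 100 mg per kg per day, and cells were taken at 14 days. G-CSF, the cytokine that drives neutrophil production and mobilises stem cells, was injected at 100 µg per kg every 12 hours, for 2 days (4 injections) or 5 days (9 injections). The labels give neither strain nor age, and the POL5551 and G-CSF arms differ in route and duration as well as in agent.

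The list for the stem cell gate and identity held 14 names of 13 genes, as Cd150 is another name of Slamf1. Of the 13, 11 were well above background on all 12 arrays, and Slamf1 and Tek on 11 arrays. Among those on all arrays were Cd48 and Flt3, which are not markers of these stem cells, so the count is not read as a measure of purity. The array's 75th percentile signal ran from 1638 (sham mouse 1) to 5579 (5-day G-CSF mouse 1) fluorescence units, and 75.3% to 85.6% of all probes were well above background. Sham mouse 1 stood apart from the other sham mice. The median level of interval probes and the count of calls for POL5551 against sham are given with and without it. Medians by level, GC content and neighbourhood, counts of groups that do not overlap, and correlations are given with all mice only. Markers of other cell types also moved with the groups. The summed level of 7 stromal markers, 6 of them well above background on all arrays, was 1.59 to 2.86 in sham mice and 3.31 to 5.11 in POL5551 mice (log2 units), 2.28 to 4.69 after 2 days and 2.94 to 4.74 after 5 days of G-CSF. That of 4 endothelial markers, 3 of them on all arrays, was -0.59 to 0.49 in sham, 0.81 to 1.08 in POL5551, 0.16 to 0.29 at 2 days and 0.55 to 1.11 at 5 days. That of 6 T and NK cell markers, 4 of them on all arrays, was 2.40 to 4.05 in sham, 1.64 to 2.47 in POL5551, 3.99 to 5.13 at 2 days and 2.08 to 3.32 at 5 days. Members of a list did not all move alike. From sham to POL5551, mean levels of Pecam1 and Emcn rose and those of Cdh5 (-4.58 to -5.61) and Kdr (-2.02 to -2.24) fell. Of the stromal markers, Kitl fell (0.30 to -0.27), Bglap stayed level (-0.78 and -0.79), and Cxcl12, Pdgfrb, Adipoq, Lepr and Col1a1 rose. All T and NK markers were lower in POL5551. At 2 days Ncr1 was lower than in sham (-1.18 against -0.91), and the others were higher. No list had a marker that was below background on every array, and the part of other cells in the results that follow was not tested. With RNA of a whole sorted sample, fewer cells of a type and less RNA per cell cannot be told apart.

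The probes are 60 bases long. The sequences below, from the deposited scanner files and written as those files give them, are of intervals on which the results turn. Among RefSeq mRNA probes the poly(A) signal AATAAA occurred in 3087 of 28154 (10.96%) as written and its reverse complement in 3.73%. Capitals mark AATAAA, which 1 of the sequences holds. The first 5 probes were lower in POL5551 than in sham mice, and the last 3 of these lie side by side in 1 interval on chromosome 2. The next 2 come from 1 stretch of chromosome 16, and the 2 after those changed with G-CSF.
A_30_P01025733 (chrX:69100279-69100983, F): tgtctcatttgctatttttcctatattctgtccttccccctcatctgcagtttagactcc
A_30_P01019354 (chr8:87504644-87513694, F): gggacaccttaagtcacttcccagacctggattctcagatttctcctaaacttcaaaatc
A_30_P01029620 (chr2:65240793-65292293, R): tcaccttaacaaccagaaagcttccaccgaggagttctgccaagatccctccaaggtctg
A_30_P01027432 (chr2:65240793-65292293, R): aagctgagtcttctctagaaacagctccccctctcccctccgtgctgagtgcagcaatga
A_30_P01023560 (chr2:65240793-65292293, F): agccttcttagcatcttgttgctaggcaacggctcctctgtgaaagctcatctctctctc
A_30_P01033209 (chr16:64758224-64765674, F): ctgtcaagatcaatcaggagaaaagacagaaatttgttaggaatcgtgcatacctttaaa
A_30_P01025389 (chr16:64758224-64765700, F): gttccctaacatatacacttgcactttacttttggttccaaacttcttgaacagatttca
A_30_P01018510 (chr1:69566918-69567447, R): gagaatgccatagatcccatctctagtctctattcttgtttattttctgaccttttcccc
A_30_P01032866 (chr5:109156118-109156422, F): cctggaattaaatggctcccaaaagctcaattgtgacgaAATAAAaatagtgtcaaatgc

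By the scanner software's flag, interval probes were detected about as often as probes of messenger RNAs. A probe counts as detected where the scanner software marked it well above background, and 3112 of the 4427 (70.3%) were so marked on all 12 arrays. The same held for 67.6% of 28154 RefSeq mRNA probes and 48.6% of 2463 RefSeq non-coding RNA probes. It also held for 614 of 1535 probes of off-tissue genes, which here means olfactory, vomeronasal and taste receptors and keratin-associated proteins, genes that blood cells are not known to use. Detection was on no array for 193 interval probes (4.36%) and for 11.8% of the off-tissue probes. The flag is therefore also set for many probes whose gene should be silent in these cells, and "well above background" is not read here as expression. A stricter bar was the 95th percentile of the off-tissue probes on the same array. Above it stood 18.9% of interval probes in sham mice, 26.7% in POL5551 mice, 17.9% after 2 days and 23.7% after 5 days of G-CSF. The mRNA shares in the same order were 21.2%, 41.1%, 16.6% and 30.3%, well above the interval shares in POL5551 mice and after 5 days. Those shares moved with the off-tissue level itself, which was lowest in POL5551 mice.

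Per mouse, the share of interval probes well above background was 85.7% ± 1.23 in sham, 81.7% ± 2.04 in POL5551, 88.2% ± 0.87 after 2 days and 87.2% ± 3.58 after 5 days of G-CSF (mean ± SD, n = 3). The mRNA probes lay between 83.1% and 86.0% in the 4 groups, and the off-tissue probes between 53.0% and 73.9%, also lowest in POL5551. On all 3 arrays of a group, 3476 interval probes were detected in sham, 3327 in POL5551, 3687 after 2 days and 3558 after 5 days of G-CSF. Group-specific detection was rare. POL5551 mice lacked 9 interval probes (0.203%) that were detected on all 9 other arrays, beside 27 mRNA probes (0.0959%). After 2 days of G-CSF, 3 interval probes were detected on all 3 arrays and nowhere else, and after 5 days 1 was (0.0678% and 0.0226% of interval probes). None was detected in this way in sham or POL5551 mice. Of the mRNA probes, 7 (0.0249%) were detected in sham mice alone, 1 in POL5551, 7 at 2 days and 1 at 5 days.

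Detection rose with the GC content of the probe. Among interval probes of at most 35% GC, 34.0% were detected on all 12 arrays and 23.0% on none. The share on all arrays was 51.0% at 35 to 40%, 71.9% at 40 to 45%, 87.4% at 45 to 50% and 94.4% at 50 to 55% GC, and it was 99.2% above 60%. The other classes rose in the same order up to 55% GC, from 47.2% to 90.9% for mRNA and from 9.72% to 89.2% for off-tissue probes. Strand made no visible difference, with 70.3% of 2212 forward and 70.2% of 2215 reverse probes on all arrays. Interval length, which had a median of 7215 bases and ran from 62 to 538251, went with detection weakly: of 4 equal classes by length, the shortest had 62.8% of probes on all arrays, the middle classes 70.3% and 75.1% and the longest 73.0%. Chromosomes ranged from 62.4% (chromosome 16) to 79.9% (chromosome 17). AATAAA was in 178 interval probes (4.02%), near the 4.63% of off-tissue probes and below the 12.5% of RefSeq non-coding RNA probes.

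**Figure D1:**
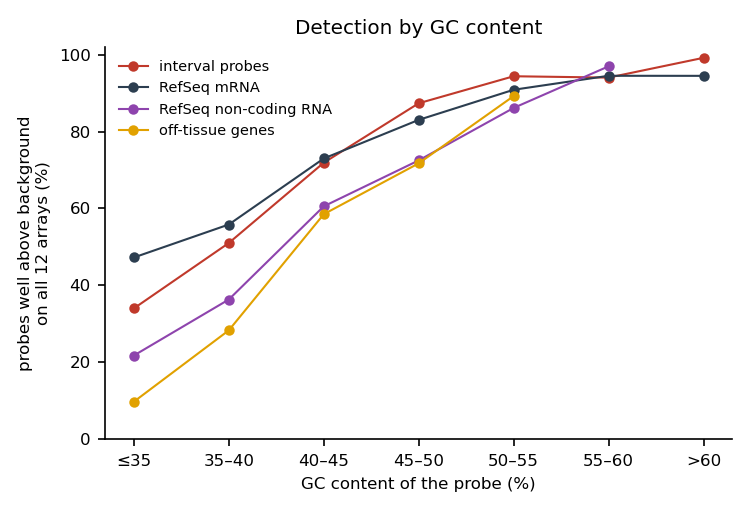
Share of probes well above background on all 12 arrays (y axis, %) by the GC content of the 60-base probe (x axis, %), 1 line per class of probe, for bins of at least 20 probes. All lines rise with GC content, and the interval probes go from 34.0% at the lowest bin to 99.2% at the highest.

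Detection of both strands of an interval lay close to what the shares of the single strands give. For 826 intervals probed on both strands (the first probe of each strand by its identifier), both were detected on all 12 arrays in 488 (59.1%). The single strands were so detected in 76.3% and 73.4%, whose product is 56.0%. For 313 pairs of probes on the same strand of an interval, where an interval can give a pair on each strand, both were detected in 58.5%. The product of the single shares there is 51.0%. The share lay 3.12 points above the product for opposite strands and 7.48 points for the same strand. The labels do not say how the cDNA was amplified, and the cDNA was labelled chemically, so which strand carried the dye is not known here. A signal on both strands is therefore not read as transcription of both.

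A contrast of 1 strand on all 12 arrays against the other strand on none occurred in 27 of those 826 intervals (3.27%). It occurred in 8 of the 313 pairs of the same strand (2.56%). Of the 27 intervals, 4 with the steadiest detected probe are named. In chr8:47813487-47824869 the forward probe lay between -1.5 and -0.27 on all arrays (log2 relative to the array's 75th percentile) and the reverse probe was never above background. The same pattern, with the forward strand detected, held in chr4:44181997-44249172 and chr3:131128972-131163308, and with the reverse strand detected in chr5:108538417-108550517. In all 4 the detected probe was the richer in GC, at 45%, 78.3%, 71.7% and 41.7% against 35%, 28.3%, 40% and 31.7%, and the part of GC content in the contrast was not tested. The pair on chromosome 3 shows that difference in its letters, the forward probe first.
A_30_P01022363 (chr3:131128972-131163308, F): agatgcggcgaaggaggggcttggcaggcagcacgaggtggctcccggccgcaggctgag
A_30_P01032803 (chr3:131128972-131163308, R): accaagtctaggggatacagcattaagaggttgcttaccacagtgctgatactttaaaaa
The forward probe was at 2.97 ± 0.14 in sham, 2.69 ± 0.27 in POL5551, 3.47 ± 0.06 after 2 days and 3.49 ± 0.59 after 5 days of G-CSF (mean ± SD, n = 3). The POL5551 mice overlapped the sham mice and lay below the mice on 2 days of G-CSF, and no comparison passed the test.

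As a whole the interval probes were lower in POL5551 mice. The median level over all 4427 was -0.79, -1.5 and -1.52 in the sham mice and -2.31, -2.01 and -1.93 in the POL5551 mice. It was -1.07, -1.19 and -1.18 after 2 days and -1.77, -1.69 and -1.31 after 5 days of G-CSF. Every POL5551 mouse was thus below every mouse of the other groups. Sham mouse 1 was the highest of all 12, and without it the group difference between POL5551 and sham was -0.57 in place of -0.81. The other classes of probe moved too. The mean over mice of the off-tissue median was -2.79 in sham and -4.59 in POL5551, that of RefSeq non-coding RNA -2.45 and -3.42, and that of mRNA -1.27 and -1.14. The same mouse, sham mouse 1, was highest in the interval and off-tissue medians, and the same mouse, POL5551 mouse 1, was lowest in both.

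**Figure D2:**
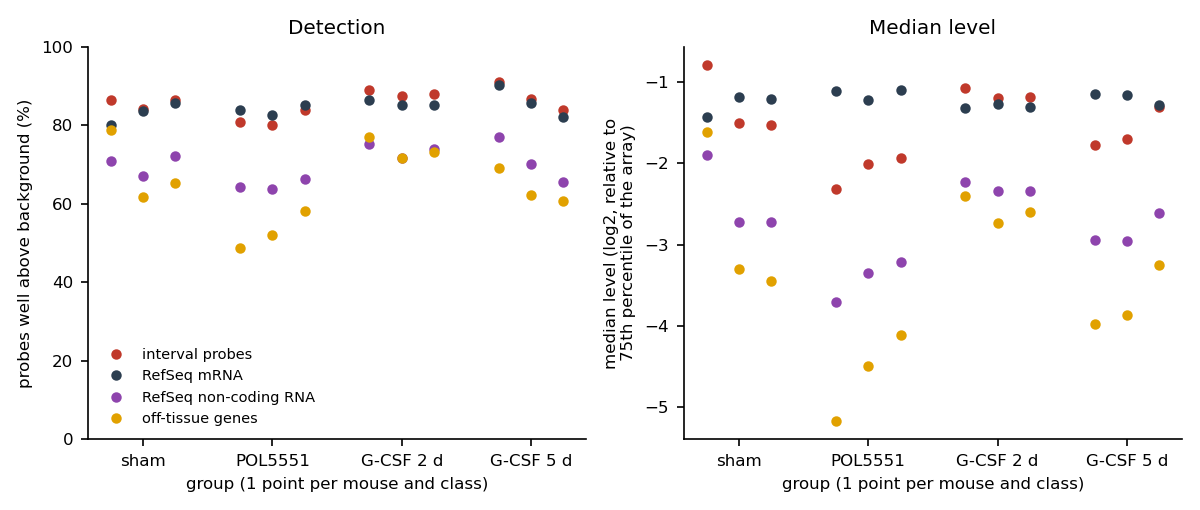
Left, share of probes well above background (y axis, %); right, median level (y axis, log2 relative to the array's 75th percentile); 1 point per mouse and class of probe, 3 mice in each group on the x axis. The interval medians of the POL5551 mice, -2.31 to -1.93, lie below those of all other mice, and the off-tissue medians move the same way and further.

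The lower level of interval probes in POL5551 mice was not limited to dim probes. Tested probes, those detected on at least 3 arrays, were sorted by their mean level over the 12 arrays. The median log2 difference of POL5551 minus sham for interval probes was -1.16 under a mean level of -4, -0.95 from -4 to -2, -0.74 from -2 to 0, -0.55 from 0 to 2 and -0.55 above 2. The mRNA probes of the same bands went from -0.73 and -0.29 to 0.33, 0.62 and 0.44. RefSeq non-coding RNA probes lay close to the interval probes in every band, from -1.16 to -0.57, and off-tissue probes, with under 20 tested above 2, lay lower in the other bands, from -1.81 to -1.27. With GC content held at 40 to 45%, the medians were -0.87 for interval, 0.17 for mRNA, -0.91 for RefSeq non-coding RNA and -1.42 for off-tissue probes. These are descriptions of probes that share the same 6 arrays, and no test was made on them.

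**Figure D3:**
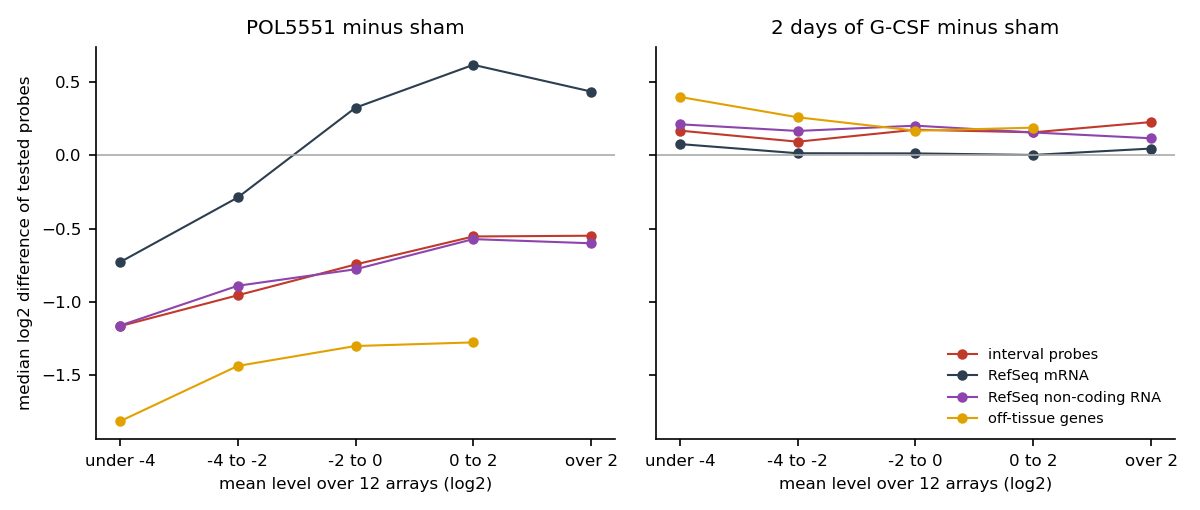
Median log2 difference of tested probes (y axis) by mean level over the 12 arrays (x axis, log2), for POL5551 minus sham on the left and 2 days of G-CSF minus sham on the right, 1 line per class of probe. On the left the interval line runs from -1.16 to -0.55, beside RefSeq non-coding RNA and between mRNA and off-tissue probes; on the right the interval line lies between 0.09 and 0.23.

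Single intervals that passed the test against sham were few. Of 4097 interval probes tested, 53 fell and 2 rose in POL5551 mice (limma, adjusted p under 0.05 over all probes). Over all 49466 probes, 1.41% passed in either direction, 1.23% lower and 0.182% higher, so the interval share of 1.34% was near the background. The median difference was -0.76 for interval probes and -0.34 for all tested probes (-0.17 without sham mouse 1), and 3273 interval probes (79.9%) were lower. In 1323 (32.3%) every POL5551 mouse was below every sham mouse, beside 21.9% of all probes, and in 175 (4.27%) every POL5551 mouse was above, beside 11.4%. The 53 probes belonged to 52 intervals on 18 chromosomes, 28 of them on the forward strand, and their differences ran from -6.39 to -1.38. Of the 53, 26 were detected on all 12 arrays and 19 on no POL5551 array. When each array's off-tissue median entered the fit as a covariate, 0 interval probes passed, as did 0 of all 49466 probes. The off-tissue medians of the POL5551 mice, -5.17 to -4.11, lay below those of all other mice, -3.97 to -1.61. That covariate thus takes up much of the difference between groups. A POL5551 call lost with it, here and below, cannot tell a change of the probe from the shift of the array. Without sham mouse 1 only 6 interval probes passed, beside 105 of all probes. The count was 188 without sham mouse 2, 434 without sham mouse 3, 85 without POL5551 mouse 3 and 55 without 5-day mouse 3, and it was 10 to 35 without any 1 of the other 7 mice. Over all probes, in the same order, it was 1906, 4548, 842, 640 and 83 to 394, beside 698 with every mouse. Within slide 1 the median interval difference of POL5551 from sham was -1.57 beside an off-tissue -3.19, and within slide 2 it was -0.35 beside -0.73.

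The interval probe with the smallest p over the 4 groups was A_30_P01025733 on chromosome X, in a stretch of 705 bases on the forward strand. Its level was -3.11, -3.22 and -3.41 in sham mice and -7.43, -7.11 and -6.73 in POL5551 mice. It was -2.34, -1.30 and -1.81 after 2 days and -3.93, -3.49 and -3.16 after 5 days of G-CSF. The POL5551 mice were all low, none of them above background, and did not overlap any other group. The fitted difference from sham was -3.84 ± 0.36 (limma adjusted p = 0.0026; ± is the SE wherever it follows a difference), and it passed the test whichever mouse was left out, though not with normexp (0.0815) or the off-tissue covariate (0.197). Where no array of a group was above background, a fold is given as a lower bound, the bright group's mean over the lowest signal measurable on the dim arrays. POL5551 was by that reckoning at least 3.32-fold below sham (group means -7.09 and -3.24) and at least 8.93-fold below 2 days of G-CSF (adjusted p = 0.0004). The adjusted p against 5 days of G-CSF was 0.0115, at least 2.73-fold, a call lost without any 1 of 5 mice and in 3 of 12 other settings. The nearest mRNA probe, of Vma21, an assembly factor of the vacuolar proton pump, lay 34.8 kb away on the same strand and differed by -0.996 from sham (adjusted p = 0.163). Against 2 days of G-CSF the Vma21 probe was higher in POL5551, by 1.76 ± 0.46 (adjusted p = 0.0273), the opposite direction to the interval probe.

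Next to Junb, a transcription factor of the AP-1 family, A_30_P01019354 also fell. The levels were -0.48, -1.61 and -1.48 in sham and -7.30, -5.97 and -7.15 in POL5551, where no array was above background. The levels after 2 days of G-CSF were -1.72, -2.48 and -0.67, and after 5 days -2.99, -3.38 and -1.28, so only the POL5551 mice did not overlap the others. The difference of POL5551 from 5 days, -4.26 ± 0.65, did not pass (limma adjusted p = 0.0573), while that from 2 days, -5.19 ± 0.65, did (0.0067). The difference from sham was -5.62 ± 0.65 (limma adjusted p = 0.0068), at least 13.8-fold, and it held with each mouse left out but not with normexp (0.0514) or the off-tissue covariate (0.455). The interval, 9051 bases long, lies 2.70 kb from the array's Junb probe and on the other strand, and Junb itself differed from sham by 0.81 ± 0.73 (adjusted p = 0.414).

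In 1 interval, chr2:65240793-65292293 on chromosome 2, probes of both strands passed the test, the only interval of 751 tested on both strands to do so in that comparison. Its 3 probes fall within 217 bases. The forward probe A_30_P01023560 was at 0.06, -1.86 and -0.69 in sham and at -7.36, -7.06 and -7.23 in POL5551. It fell by 6.39 ± 1.09 (limma adjusted p = 0.0274), at least 17.7-fold, and that call was lost without sham mouse 1 (adjusted p = 0.102), POL5551 mouse 1 (0.109) or POL5551 mouse 2 (0.067). It was also lost with the off-tissue covariate (0.87) and with mouse number as a block (0.0529). The reverse probes are outside the naming rule and were picked after their values were seen. A_30_P01029620 was detected on all 12 arrays and went from -0.41, -1.34 and -0.86 in sham to -4.08, -3.84 and -3.78 in POL5551, a difference of -3.03 ± 0.37 (adjusted p = 0.0080). A_30_P01027432, also detected on all arrays, was at 1.46, 0.60 and 1.06 in sham and at -0.86, -0.23 and -1.13 in POL5551, with a difference of -1.78 ± 0.39 that just missed the threshold (adjusted p = 0.0503). In all 3 probes the POL5551 mice lay below every sham mouse and every mouse on 2 days of G-CSF, and no difference between POL5551 and 5 days of G-CSF passed the test (adjusted p from 0.464 to 0.488). The nearest gene probe on the array was of Scn3a, a voltage-gated sodium channel, 4.03 kb from the interval. It differed from sham by -1.95 ± 0.82 (adjusted p = 0.143) and from 2 days of G-CSF by -3.51 (adjusted p = 0.0213).

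Another 3 interval probes were among the 5 largest falls, all with no RefSeq mRNA probe within 50 kb. A_30_P01026991, in chr8:130666467-130821034 (R), was at -1.01, -2.44 and -0.66 in sham and at -6.67, -6.61 and -7.03 in POL5551, at least 12.1-fold lower (limma adjusted p = 0.0097). A_30_P01028642, in chr5:53910499-53913968 (R), was at -0.18, -3.08 and -1.80 in sham and at -7.27, -6.98 and -5.92 in POL5551, at least 9.79-fold lower (adjusted p = 0.0324). A_30_P01018129, in chr19:23068397-23190256 (R), was at 0.16, -1.71 and 0.20 in sham and at -7.37, -2.43 and -6.97 in POL5551, a difference of -5.14 ± 1.097 (adjusted p = 0.0481). The first held with every mouse left out, and was lost with quantile normalization (adjusted p = 0.0542), normexp (0.0652), the authors' values (0.0559) and the off-tissue covariate (0.548). The second was lost without 1 of 5 mice, among them sham mouse 1 and POL5551 mouse 1, and in 6 of 12 other settings. The third was lost without 1 of 9 mice and in 9 of 12 other settings, its POL5551 mouse 2 being well above the other mice of that group. Within slide 2 the third differed by -1.68, and within slide 1 by -7.53.

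**Figure D4:**
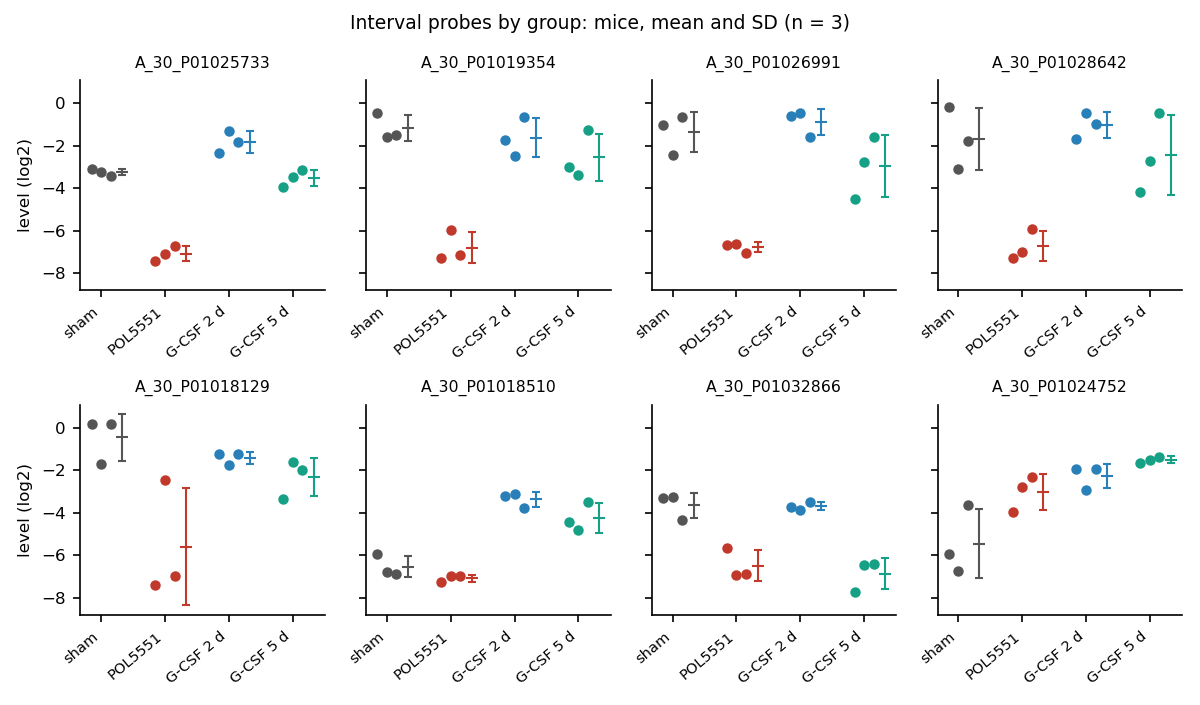
Level of 8 interval probes (y axis, log2 relative to the array's 75th percentile) in the 4 groups; points are mice, the dash is the group mean and the bar its SD (n = 3). In the first 4 panels the POL5551 mice lie between -7.43 and -5.92, below all others; A_30_P01018510 is high in both G-CSF groups and A_30_P01032866 low in POL5551 and at 5 days.

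Both interval probes that rose in POL5551 mice came from the same stretch of chromosome 16, next to 4930453N24Rik, a mouse gene known only by its clone name. A_30_P01033561, in chr16:64761963-64762369 (R), was at -5.79, -6.67 and -6.66 in sham, none above background, and at -2.23, -2.61 and -3.78 in POL5551. The difference was 3.50 ± 0.70 (limma adjusted p = 0.0419), at least 3.41-fold. A_30_P01033209, on the other strand, was at -5.92, -6.76 and -6.76 in sham and at -4.27, -3.70 and -4.21 in POL5551, a difference of 2.42 ± 0.45 (adjusted p = 0.0353), at least 1.501-fold. Both were about as high after 5 days of G-CSF, at -3.50 ± 0.55 and -3.59 ± 0.44 (mean ± SD, n = 3), where the differences from sham of 2.87 and 2.90 did not pass (adjusted p = 0.215 and 0.0552). After 2 days A_30_P01033561 was at -6.69, -3.91 and -6.44, above background in 1 mouse. Both calls were lost without sham mouse 1, POL5551 mouse 1 or POL5551 mouse 2, and each without any 1 of 8 and 6 mice in all. Of 12 other settings, 7 lost the call of A_30_P01033561, among them quantile normalization (limma adjusted p = 0.0542), normexp (0.0718), the authors' values (0.0557) and only the 2 groups (0.0912). That of A_30_P01033209 was lost in 5, among them normexp (0.0832), slide as a fixed block (0.0796) and only the 2 groups (0.125). The gene's own probe, on the reverse strand, differed by 1.08 ± 0.33 (adjusted p = 0.0900).

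The stretch holds 5 interval probes, which did not behave alike. A_30_P01025389 was above background on all 3 arrays at 2 days of G-CSF, at -3.04, -2.92 and -3.56, and on none of the other 9, which lay between -7.22 and -5.04. Its difference from sham, 3.15 ± 0.52, did not pass (limma adjusted p = 0.113). A_30_P01028301, which shares 38 bases and the strand with A_30_P01033561, was above background on no array. A_30_P01030105 was above background on 8 arrays, with 2.19 ± 0.68 between POL5551 and sham (adjusted p = 0.0900). The last pair was picked after its values were seen, to complete the stretch.

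**Figure D5:**
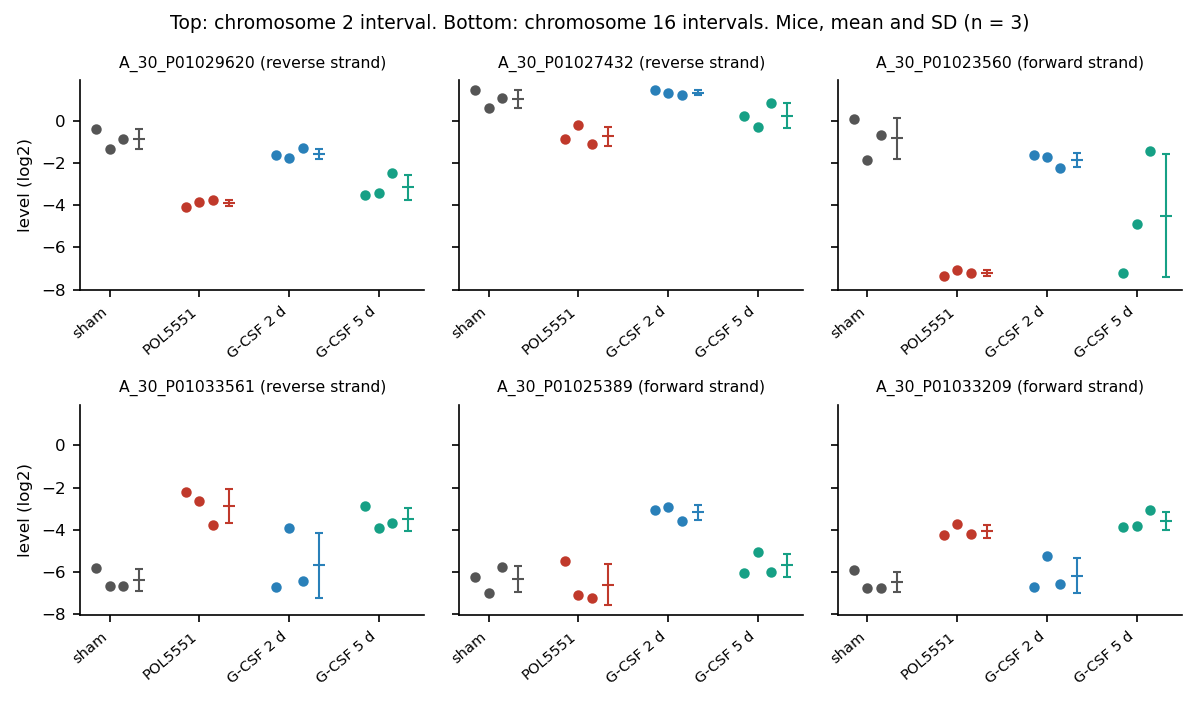
Level (y axis, log2 relative to the array's 75th percentile) of 3 probes of the chromosome 2 interval (top) and 3 of the chromosome 16 stretch (bottom) in the 4 groups; points are mice, the dash is the mean and the bar the SD (n = 3). In the top panels every POL5551 mouse lies below every sham mouse. In the bottom panels the left and right probes are above background in POL5551 and 5-day mice, the left also in 1 mouse at 2 days. The middle probe is above background at 2 days alone.

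After 2 days of G-CSF, 1 interval probe rose against sham and 0 fell, beside 0.0222% of all probes called in either direction (0.0182% higher, 0.00404% lower). In 339 (8.27%) the groups did not overlap with 2-day mice higher, beside 6.22% of all probes, and in 161 (3.93%) with 2-day mice lower, beside 6.06%. At an unadjusted p under 0.05 there were 340 of 4097 interval probes, beside 4440 of all 49466. The median difference was 0.16 for interval and 0.06 for all tested probes. The probe that rose, A_30_P01018510, lies 10.8 kb from the array's probe for Ikzf2, the transcription factor Helios. It was at -5.94, -6.76 and -6.87 in sham and at -7.27, -6.98 and -6.97 in POL5551, none above background. It was at -3.22, -3.10 and -3.75 after 2 days and at -4.44, -4.80 and -3.47 after 5 days of G-CSF, all above background, so the 2 G-CSF groups lay above the others without overlap. The rise at 2 days was 3.17 ± 0.41 (limma adjusted p = 0.0388), at least 2.45-fold, and was lost without any 1 of 9 mice and in 4 of 11 other settings. At 5 days it was 2.29 higher than sham without passing the test. The Ikzf2 probe differed by -0.03 ± 0.35 at 2 days. The smallest p among interval probes lower at 2 days belonged to A_30_P01029036 and A_30_P01026788, neither of which passed (adjusted p = 0.290 and 0.325). A_30_P01029036, in chr14:103746051-103840199 (F), was detected on all 12 arrays, at -0.28, 1.14 and 0.09 in sham and at -1.64, -1.55 and -1.07 after 2 days. It was at -1.56, -1.90 and -2.14 after 5 days and at -1.96, -2.83 and -2.06 in POL5551, so the sham mice lay above all 9 treated mice. The difference of POL5551 from sham, -2.60 ± 0.42, passed (adjusted p = 0.0241), a call lost without POL5551 mouse 1 (0.0692) or 2 (0.0621). It was also lost in 8 of 13 other settings, among them quantile normalization (0.0542), median scaling (0.0570), the authors' values (0.0559), slide as a fixed block (0.0628) and only the 2 groups (0.153). A_30_P01026788 was at -2.38, -1.86 and -2.36 in sham and at -3.85, -3.03 and -3.78 after 2 days.

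After 5 days of G-CSF, 1 interval probe fell against sham and 0 rose, beside 0.0728% of all probes (0.0566% higher, 0.0162% lower). An unadjusted p under 0.05 was found for 419 of 4097 interval probes, beside 5559 of all 49466. The 5-day mice lay above every sham mouse in 150 interval probes (3.66%), beside 5.46% of all probes, and below in 360 (8.79%), beside 7.52%. The probe that fell, A_30_P01032866, sits in an interval of 305 bases, 20.2 kb from the probe of Fgfrl1, a receptor-like protein of the fibroblast growth factor family. It was at -3.32, -3.27 and -4.32 in sham, -3.73, -3.85 and -3.49 after 2 days, and -7.71, -6.44 and -6.42 after 5 days. POL5551 mice were also low, at -5.65, -6.91 and -6.89, and none of the 6 low arrays was above background. The fall was 3.22 ± 0.48 at 5 days (limma adjusted p = 0.0489), at least 2.57-fold, and 2.85 ± 0.48 in POL5551 (adjusted p = 0.0272), at least 2.53-fold. The 5-day call was lost without any 1 of 10 mice, and the POL5551 call without sham mouse 1 or POL5551 mouse 2. Of 12 other settings, 10 lost the 5-day call and 7 the POL5551 call, among the latter quantile normalization (adjusted p = 0.112), median scaling (0.0526), normexp (0.257), the authors' values (0.108) and only the 2 groups (0.138). Of the probes that did not pass at 5 days, A_30_P01024752, in chr8:122945743-122946192 (F), had the lowest p among those higher alongside A_30_P01033209. It was at -5.95, -6.75 and -3.63 in sham and at -1.65, -1.49 and -1.35 after 5 days.

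Between 5 and 2 days of G-CSF 0 interval probes passed in limma's test, as did 0.0% of all probes. An unadjusted p under 0.05 was found for 664 of 4097 interval probes, beside 7550 of all 49466. The median difference was -0.45 for interval, -1.02 for off-tissue and -0.12 for all tested probes. The 5-day mice were below every 2-day mouse in 1156 interval probes (28.2%), beside 19.9% of all probes, and above in 282 (6.88%), beside 14.3%. Between POL5551 and 5 days of G-CSF 2 interval probes passed, both lower in POL5551, beside 0.0526% of all probes. The POL5551 mice were below every 5-day mouse in 851 interval probes (20.8%), beside 13.6% of all probes, and above in 155 (3.78%), beside 10.2%. The probes that passed were A_30_P01025733 and A_30_P01018510, whose levels are given above. A_30_P01018510 differed by -2.83 (limma adjusted p = 0.0456), a call lost without any 1 of 9 mice and in 9 of 12 other settings, among them the authors' values (0.202) and normexp (0.523). The treatments against sham share the 3 sham mice, so their lists are not independent of one another.

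The contrast between POL5551 and 2 days of G-CSF was the widest. Of the interval probes, 1140 fell and 66 rose in POL5551 relative to 2 days (29.4%), beside 23.5% of all probes, 17.8% lower and 5.66% higher. The median difference was -0.98 for interval, -0.39 for all tested and -1.79 for off-tissue probes, of which 478 of 1208 fell and 0 rose. With arrays scaled to a common median in place of the 75th percentile, which moved the median of all probes from -0.39 to 0.06, 586 interval probes fell and 194 rose. Of all probes, 4808 fell and 6437 rose with that scaling, beside 8810 and 2800 in the reported fit. With each array's off-tissue level in the fit 0 interval probes passed, as did 0 of all probes. The count was 10, 483 and 33 without 2-day mouse 1, 2 and 3, 22, 614 and 738 without POL5551 mouse 1, 2 and 3, and 2005 without sham mouse 1. Over all probes, in the same order, it was 176, 4871, 395, 242, 5593, 7146 and 22952. In 2246 interval probes (54.8%) every POL5551 mouse was below every 2-day mouse, beside 37.1% of all probes, and in 346 (8.45%) above, beside 23.8%. All 3 mice of the 2-day group were on 1 slide of their own, so slide and group cannot be told apart there. Sham mice (slides 1 and 2) and 5-day mice (slides 4, 5 and 6) shared no slide either. POL5551 and 5-day mice shared slide 5 alone. A_30_P01031841 in chr15:61153994-61285386 (F) was among the largest falls, at -7.49, -7.14 and -7.13 in POL5551 against -1.75, -1.67 and -1.96 at 2 days (limma adjusted p = 0.0198). Its sham mice were spread over -0.25, -6.99 and -3.72. The call was lost without any 1 of 3 mice and with the off-tissue covariate. Among the largest rises were A_30_P01020264 in chr17:95255725-95272425 (R), 2.84 ± 0.79 (adjusted p = 0.0317), A_30_P01033561, already described, and A_30_P01029669 in chrX:106030800-106077725 (R), 2.77 ± 0.81 (adjusted p = 0.0357). In that order these rises were lost without any 1 of 5, 4 and 6 mice, and all were lost with the off-tissue covariate.

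Over all 4 groups, limma's F test called 36 interval probes (0.879%) beside 0.968% of all probes. The count was 756, 193 and 114 without sham mouse 1, 2 and 3, and 7 to 35 without any 1 of the other mice. Over all probes, in the same order, it was 8115, 1924, 1329 and 88 to 442. The smallest adjusted p belonged to A_30_P01025733 (0.0015), A_30_P01018510 (0.0077) and A_30_P01019354 (0.0099). A_30_P01022760, in chr3:86827945-86886695 (R), which also holds a probe of Kirrel, a cell adhesion protein, on the same strand, was likewise at 0.0099. It was at -2.61, -3.63 and -3.24 in sham and at -3.04, -2.49 and -2.89 at 2 days. It was at -7.42, -7.08 and -7.07 in POL5551 and -7.82, -7.12 and -5.15 at 5 days, with none of these 6 arrays above background. Its fall in POL5551 was at least 3.51-fold (limma adjusted p = 0.0160), lost without sham mouse 1 or POL5551 mouse 1, with normexp (0.0866) or with the off-tissue covariate (0.713). Kirrel differed from sham by -0.27 ± 1.20.

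The 4 interval probes detected in a single group are given here, 3 of the 2-day and 1 of the 5-day group. Besides A_30_P01025389, A_30_P01025764 in chr9:82524061-82526378 (R) was at -3.11, -4.03 and -4.01 at 2 days and A_30_P01017854 in chr8:15580278-15583962 (R) at -4.44, -4.15 and -3.41. Only the 5-day arrays detected A_30_P01022328 in chr5:22058025-22072475 (F), at -3.97, -3.97 and -3.72, where the other 9 lay between -7.17 and -4.92. At the other end, 3 probes barely varied. A_30_P01018687, A_30_P01019834 and A_30_P01025025, all on chromosome 1, had group means of -0.40 to -0.35, 1.82 to 2.13 and 4.13 to 4.28, and all were detected on every array.

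Neighbourhood went with the size of the difference. A RefSeq mRNA probe lay inside the interval for 183 interval probes (4.13%), on the same strand for 87, which goes against the label intergenic for those. Of the 183, 81.4% were detected on all arrays, beside 69.5% with such a probe within 5 kb, 70.5% from 5 to 50 kb and 68.9% beyond. The median difference of POL5551 from sham was -0.12, -0.64, -0.75 and -0.91 in that order. Against 2 days of G-CSF, 17.3%, 26.1%, 28.1% and 34.5% passed. The difference of an interval probe and that of its neighbouring gene, both POL5551 minus sham, had a Pearson r of 0.361 over 169 probes with the gene inside. It was 0.0965 over 602 within 5 kb, 0.0764 over 1823 from 5 to 50 kb and 0.0585 over 1197 beyond. These coefficients describe probes measured on the same arrays.

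The differences of probes of 1 interval were compared between and within strands. The difference of POL5551 from sham correlated at r = 0.398 over 748 intervals with opposite strands tested and at r = 0.421 over 282 pairs of the same strand. After 2 days of G-CSF the values were 0.144 and 0.0337, and after 5 days 0.313 and 0.358. All pairs share their arrays, and 53.7% of intervals overlap another interval.

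Around the Rn18s gene, which encodes a ribosomal RNA, sham mouse 1 lay apart. A_30_P01027833, in chr17:39982023-39983277 (F), was at 4.62 in that mouse and at 7.33 and 7.63 in the other sham mice, and A_30_P01025659, in chr17:39979941-39981793 (R), at 2.79 beside 6.09 and 6.38. The Rn18s probe itself was at 6.29, 7.13 and 7.48. In the POL5551 group the first of these interval probes was at 7.51 ± 0.10, after 2 days of G-CSF at 7.72 ± 0.09 and after 5 days at 7.15 ± 0.44 (mean ± SD, n = 3). None of the 5 interval probes there passed a test against sham, and they were picked after their values were seen. Precision within an array was better: 5 interval probes, of them 1 at this place, were each printed 10 times, and the median SD of their repeated spots was 0.04 to 0.11 on the log2 scale.

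Named long non-coding RNA genes are given beside the unnamed intervals. Of 53 listed, 44 were matched to a probe, 43 were tested, and 34 were detected on all 12 arrays. Gm14005 and Morrbid were matched to the same probe, which is counted under each name in these and the following numbers. In the comparisons with sham 0 passed limma's test. The median difference of POL5551 from sham was -0.09, with 23 of 43 lower, beside -0.34 for all tested probes. Between POL5551 and 2 days of G-CSF 6 of the 43 (14.0%) passed, all lower in POL5551, a share below the 17.8% of all probes that were lower. Among them were Hottip, a transcript of the Hoxa cluster, by -2.56 (adjusted p = 0.0163), Crnde by -3.06 (0.0407) and Terc, the telomerase RNA, by -2.11 (0.0470).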

How the data were processed

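RNA of sorted stem cells from 12 mice was labelled with Cy5 and hybridised in a single colour. The deposited scanner files hold fluorescence intensity per spot, made with Agilent Feature Extraction 11.5.1.1 per the file headers, which subtracted background, removed spatial trends and normalized nothing between arrays. The table of intensity values deposited by the authors (49665 probes, normalized between arrays by a method not given in the sources used here) served as an alternative. Flags such as well above background are those of the deposited files.

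From there, outlier spots were dropped, repeated spots averaged, and the level taken as log2 of the processed intensity minus the array's 75th percentile over probes other than controls. Tested probes were those marked well above background on 3 or more of 12 arrays and measured on at least 2 of the 3 arrays of each group (33 probes failed the latter). Group means over all 12 arrays were fitted with limma 3.58.1 in R 4.3.3 (8 residual and 3.18 prior degrees of freedom), two-sided, with Benjamini-Hochberg adjustment across 49466 probes and a threshold of 0.05. In simulated data for POL5551 against sham on 49241 probes, 30 of 100 planted changes of 2 and 72 of 100 of 4 (log2) were recovered, with 3 false calls. The simulated noise was independent between probes and held no shifts shared by the probes of an array. Its false calls therefore do not measure those of the real arrays, where such shifts were present. The number of arrays limits the precision.

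Members and lists were chosen with earlier results of these data known. Probes were named by rule: the largest calls per comparison and direction (up to 5 against sham, otherwise up to 3) whose groups do not overlap, or the 2 smallest p where none passed; the 3 smallest p of the F test; probes detected in 1 group alone; 4 intervals detected on 1 strand alone; and the 3 steadiest. No interval on chromosome 18 was named. Bounds take, per dim array, the higher of its lowest signal well above background and the probe's own. Distances are between array design coordinates on mm9. The labels give mouse numbers within each group and no pairing across groups, so mice were not paired in the fit. Deviations of same-numbered mice correlated at r = -0.30 to 0.25, with 7 of 18 pairs over 0.1, beside -0.27 to 0.42 for different numbers. With 3 mice a group this check cannot exclude pairing. Mice are separate animals. The alternatives were other scalings and backgrounds, the authors' table, other filters, slide and mouse number as blocks, an off-tissue covariate, fits of only the groups compared, and leaving out each mouse.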

Additional observations from a re-analysis of the deposited data

How the results depend on the processing

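Of the 27 results for named probes, 637 alternatives gave 479 on the same side of the threshold, 7 past it where the reported fit was not, 151 no longer past it and 0 of opposite direction. The numbers of interval probes called depended more on the processing, and the cause was not tested. For POL5551 against sham (55 reported) there were 8 with quantile normalization, 20 with median scaling, 93 with the 75th percentile over probes well above background everywhere, 1 with normexp and quantile normalization, 8 with the authors' values, 251 among probes well above background on all 12 arrays, 86 with 1 probe per name (fewer probes tested), 0 with the off-tissue covariate and 10 with only the 2 groups. Over all probes (698 reported) the same settings gave 149, 317, 1019, 25, 123, 1865, 759, 0 and 67. For 2 days of G-CSF against sham (1 reported), the percentile change, normexp, the filter on all 12 arrays and the fit of only the 2 groups each gave 0. For 5 days against sham (1 reported) there were 4 with quantile normalization (2 higher, 2 lower), 2 with median scaling (both higher), 3 with the authors' values, and 0 with the percentile change, normexp, no filter, the covariate, only the 2 groups, or slide as a fixed block. For 5 against 2 days (0 reported) there were 1 with quantile normalization and 2 with only the 2 groups. For POL5551 against 5 days (2 reported) there was 1 with quantile normalization, median scaling, the percentile change or the authors' values, 0 with normexp, the filter on all 12 arrays, the covariate or fixed slide, and 7 with only the 2 groups. For POL5551 against 2 days (1206 reported) there were 663 (101 higher, 562 lower) with quantile normalization, 780 with median scaling, 695 (103 higher, 592 lower) with the authors' values, 0 with the covariate and 1933 with only the 2 groups. Over all probes (11610 reported) the same settings gave 7221, 11245, 7633, 0 and 21447. The F test (36 reported) called 8, 10, 8, 7, 398 and 2 with quantile normalization, median scaling, normexp, the authors' values, the filter on all 12 arrays and the covariate. Over all probes (479 reported) it called 222, 269, 108, 213, 3421 and 33 in that order. With mouse number as a replicate block, in pairs the labels do not make, the counts were 11 for POL5551 against sham, 0 and 0 for 2 and 5 days against sham, 1 for POL5551 against 5 days and 11 in the F test, and 899 for POL5551 against 2 days; 5 of 12 arrays correlated best with their own number. Leaving out 1 mouse at a time gave 6 to 434 for POL5551 against sham, 0 to 15 for 2 days and 0 to 6 for 5 days against sham, 0 to 1 for 5 against 2 days, 0 to 9 and 10 to 2005 for POL5551 against 5 and 2 days, and 7 to 756 in the F test. Over all probes the ranges were 83 to 4548, 0 to 208, 2 to 138, 0 to 35, 0 to 123, 176 to 22952 and 88 to 8115. Slide as a fixed block could not be fitted for the comparisons with 2 days, whose mice are alone on their slide. With 5 days that fit rests on slide 5, the only slide that 5-day mice shared with another group. Median scaling moved the median of all probes for POL5551 against sham from -0.34 to 0.06. The median level of interval probes in POL5551 minus sham was -0.34 with normexp in place of -0.81, and -0.94 to -0.57 with 1 mouse left out. By the weaker flag, signal positive and significant, detection was 90.7% in sham, 88.1% in POL5551, 92.9% at 2 days and 93.0% at 5 days, and above the off-tissue 95th percentile 18.9%, 26.7%, 17.9% and 23.7%. The 81.4% of probes with an mRNA probe inside the interval that were on all arrays became 72.1% within 5 kb and 71.0% within 50 kb. Precision is limited by 3 arrays in a group and, for probes not above background, by the lowest measurable signal.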
